A study of Mus musculus with 2 samples.

Results

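Amh, Amhr2, Kitl, Npr2, Gatm and Hmga2 are 6 genes listed for higher activity in less mature granulosa cells or in those next to the oocyte. They were chosen by symbol from the probe annotation, out of 20554 genes or unnamed transcripts on the array, and all 6 had a probe. Granulosa cells came from female C57/Bl6 mice 23 to 25 days old given pregnant mare serum gonadotropin (PMSG) for 48 h. PMSG stimulates follicles through the receptor of follicle-stimulating hormone. One genotype was Esr2-/- (null), without estrogen receptor beta, and the other Esr2+/- (het), which keeps 1 intact copy, so the control is not wild type. The cells were pooled by genotype into 1 RNA sample each, and the number of animals per pool and the kind of Esr2 mutation are not given in the sources used here. Both pools were hybridised together on 2 two-colour arrays with the dyes exchanged, null in Cy5 on array 1 and in Cy3 on array 2. The arrays are technical repeats, so each SD below covers hybridisation and dye only, and no p-value can be given for genotype.

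Anti-Müllerian hormone, encoded by Amh, is secreted by granulosa cells of preantral and small antral follicles and signals through its type II receptor, encoded by Amhr2, together with type I receptors of the BMP family and SMAD proteins. In mice, cumulus cells, the granulosa cells that surround the oocyte, keep Amh after the mural cells of the follicle wall have lowered it. KIT ligand (Kitl) is made by granulosa cells and acts on the receptor KIT of the oocyte and of theca cells. NPR2 is the guanylyl cyclase receptor of C-type natriuretic peptide (CNP, gene Nppc); mural cells make the peptide, and cyclic GMP made by NPR2 in cumulus cells holds the oocyte in meiotic arrest. Gatm encodes the first enzyme of creatine synthesis. Hmga2 encodes an architectural chromatin protein of growing and undifferentiated cells and is repressed by let-7 microRNAs.

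The probes differed in how firmly they could be assigned. Amh (NM_007445), Kitl (NM_013598), Gatm (NM_025961) and Hmga2 (NM_010441) were matched by RefSeq accession. The Amhr2 probe (AF503863) was matched by Misrii, an older name of the gene in its description. Npr2 was matched in words, by BC023420, described as similar to natriuretic peptide receptor 2, and by AF331708, described as natriuretic peptide receptor B. For AF331708 the gene reference also lists mNPR-B as a name of Npr2. The brighter probe, BC023420, stands for Npr2 in the counts and medians, although its assignment is the less firm.

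Promoter sequences were available in RefSeq (GRCm38.p6) for 5 of the 6 genes, Amh being the exception. Each spans 250 bases before to 50 bases after the annotated start. Those of Amhr2, Kitl and Gatm are shown because each of these genes gave the higher signal in the null pool on array 1 and on array 2, and estrogen receptors bind DNA at paired copies of the motif GGTCA. Capitals mark GGTCA on either strand (TGACC on the strand shown).
Amhr2, chr15:102445117-102445416, plus strand: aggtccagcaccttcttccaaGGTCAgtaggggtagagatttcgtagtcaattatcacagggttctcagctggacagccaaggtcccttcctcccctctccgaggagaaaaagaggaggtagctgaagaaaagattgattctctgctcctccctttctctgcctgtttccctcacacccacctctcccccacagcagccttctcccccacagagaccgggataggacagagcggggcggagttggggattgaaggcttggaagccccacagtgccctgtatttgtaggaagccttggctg
Kitl, chr10:100015571-100015870, plus strand: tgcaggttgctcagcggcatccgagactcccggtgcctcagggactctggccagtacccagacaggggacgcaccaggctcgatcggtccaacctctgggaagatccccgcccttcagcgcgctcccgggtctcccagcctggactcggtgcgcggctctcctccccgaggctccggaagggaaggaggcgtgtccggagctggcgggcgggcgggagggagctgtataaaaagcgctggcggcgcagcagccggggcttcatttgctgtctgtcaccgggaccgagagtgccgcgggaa
Gatm, chr2:122611228-122611527, minus strand: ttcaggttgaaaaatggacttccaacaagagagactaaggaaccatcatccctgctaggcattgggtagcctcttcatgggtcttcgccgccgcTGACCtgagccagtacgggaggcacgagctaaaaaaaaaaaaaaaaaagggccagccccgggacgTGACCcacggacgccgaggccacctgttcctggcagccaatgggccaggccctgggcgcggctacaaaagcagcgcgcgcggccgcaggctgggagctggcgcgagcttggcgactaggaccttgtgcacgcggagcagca
The full estrogen response element, GGTCANNNTGACC, was found on neither strand in any of the 5 promoters, and it occurs in 0.0700% of the 32851 mouse promoters of the same length. The single motif GGTCA occurred 1 time in the Amhr2 promoter, starting 229 bases before the start, and 2 times in that of Gatm, at 156 and 91 bases. It was not found in the promoters of Kitl, Npr2 or Hmga2, and 40.5% of all promoters hold it. The Amhr2 match is part of the longer letters CAAGGTCA, the site of the orphan receptors NR5A1 and NR5A2, which overlap it and are in 1.56% of all promoters. The cyclic AMP response element TGACGTCA was in none of the 5 promoters and in 1.79% of all. These matches describe letters only. No sequence of the array probes themselves was used here.

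Of 10 granulosa identity genes 8 had a probe, and all 8, Fshr, Inha and Cyp19a1 among them, exceeded the background threshold in every channel. All 8 measured theca genes did so too, as did most spots, so this does not test which cells were present. The targeted gene Esr2 had a log2 null over het ratio of -0.50 on array 1 and -0.46 on array 2. That is 1.40-fold lower in the null pool (mean -0.48 ± 0.03, SD, n = 2 arrays). Where its probe lies relative to the disrupted part is not known here, so this value does not test the labels. Each array had 21318 non-control spots, and from 87.2% to 95.1% of them were well above background in a pool. After outlier flags and a background filter, 18514 genes or transcripts remained. Signals of a pool cannot tell fewer cells of a type from less RNA per cell.

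Amh, Amhr2, Kitl and Gatm had higher signal in the null pool on both arrays, by 1.21- to 1.35-fold. Hmga2 had opposite signs on the arrays, and Npr2, by its brighter probe, was lower on both. None of the 6 genes met a size rule of at least 2-fold in the mean and 1.5-fold on each array. Over all 18514 genes that rule passed 0.0378% as higher and 0.0918% as lower in the null pool. At 1.5-fold in the mean and 1.2-fold on each array again none of the 6 passed, and the rule passed 0.405% of all genes as higher and 0.416% as lower. The ratio was above 0 on both arrays for 4 of the 6 genes, against 22.7% of all genes, and below 0 on both for 1 gene, against 24.3%. The median over the 6 genes was 0.31 (0.34 on array 1 and 0.29 on array 2), and the median over all genes was -0.0037. These genes were proposed with earlier results of these arrays known, so their median is a description of them.

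Amh, the hormone itself, gave processed signals (spot intensity after the scanner software's background and dye correction, ± its error) of 1270 ± 24.0 in the null pool and 1157 ± 27.5 in the het pool on array 1. On array 2 the null pool had 1241 ± 25.4 and the het pool 744 ± 13.4. The 3 signals from 1157 to 1270 lie close together, and the het pool on array 2 stands below them. Both null signals were above both het signals. Processed signals were not scaled between arrays here, so comparing them across arrays also takes in differences between the arrays. The share of all genes with such a separation is given below for the normalised levels only. The log2 null over het ratio after normexp correction and loess was 0.13 on array 1. On array 2 it was 0.42, which gave a mean of 0.27 ± 0.21 (SD, n = 2 arrays) or 1.21-fold. The Amh spot was dim, between 2.58 and 4.47 times its local background.

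Amhr2, the receptor that binds the hormone, was the brightest of the 6 probes over its own background, at 21.2 to 57.6 times. Its processed signal on array 1 was 20892 ± 210.1 in the null pool and 16124 ± 202.4 in the het pool. On array 2 it was 16682 ± 151.6 in the null pool and 13122 ± 121.8 in the het pool. The null pool was higher on each array, but the null signal of array 2 was close to the het signal of array 1. The log2 ratios of 0.37 and 0.33 gave a mean of 0.35 ± 0.03 (SD, n = 2 arrays), or 1.28-fold. This closeness of the arrays rests on the intensity-dependent dye correction. With median centring in place of loess the ratio was 0.85 on array 1 and -0.26 on array 2, with a mean of 0.29 ± 0.78.

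Kitl, the granulosa ligand for KIT, had a processed signal on array 1 of 1817 ± 27.3 in the null pool and 1142 ± 24.1 in the het pool. On array 2 it had 1356 ± 28.6 in the null pool and 1042 ± 16.5 in the het pool. Both null signals were above both het signals, and the null pool on array 1 was the highest. The log2 ratio was 0.48 on array 1. On array 2 it was 0.25, which gave a mean of 0.37 ± 0.17 (SD, n = 2 arrays), or 1.29-fold. The scanner software's own ratios gave 0.53 ± 0.20. Whether the probe reads the membrane-bound form, the soluble form or both is not known here.

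Gatm, which starts creatine synthesis from arginine and glycine, had the highest ratio of the 6 genes. Its processed signal on array 1 was 2018 ± 23.6 in the null pool and 1292 ± 29.8 in the het pool, and on array 2 it was 1675 ± 27.0 and 1103 ± 13.5. Both null signals stood well above both het signals. The log2 ratios of 0.44 and 0.43 nearly coincided after loess and gave a mean of 0.44 ± 0.01 (SD, n = 2 arrays), or 1.35-fold. With median centring they were 0.63 and 0.26, with the same mean of 0.44 and an SD of 0.26. With the scanner software's ratios it reached 0.62 ± 0.03, or 1.54-fold, and was then the 1 gene of the 6 past the 1.5-fold rule.

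**Figure D1:**
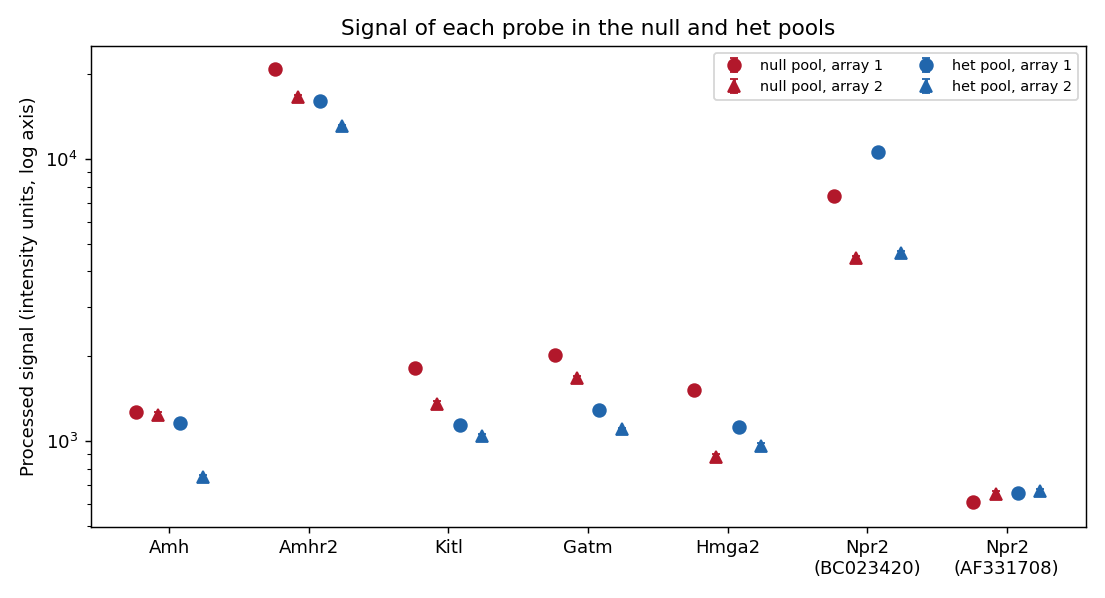
Processed signal (intensity units, log axis) of each probe in the null pool (red) and the het pool (blue) on array 1 (circles) and array 2 (triangles), with the scanner software's error as bars, mostly smaller than the points. For Amh, Amhr2, Kitl and Gatm both red points lie above both blue points, whereas for Hmga2 and the brighter Npr2 probe (BC023420) the pools overlap. These signals were not scaled between arrays.

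Hmga2, the chromatin protein gene, had a processed signal on array 1 of 1520 ± 28.8 in the null pool and 1124 ± 29.8 in the het pool. On array 2 the order was the other way, with 878 ± 20.7 in the null pool and 965 ± 17.0 in the het pool. The pools overlapped, and the log2 ratios of 0.32 and -0.10 gave a mean of 0.11 ± 0.30 (SD, n = 2 arrays). The direction of Hmga2 was therefore not settled.

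Npr2, the CNP receptor, was the 1 gene of the 6 with a negative ratio on both arrays. The brighter probe, BC023420, had a processed signal on array 1 of 7393 ± 105.8 in the null pool and 10590 ± 180.7 in the het pool. On array 2 it had 4466 ± 89.2 in the null pool and 4655 ± 70.3 in the het pool. The het signal on array 1 stands apart as the highest, and on array 2 the pools nearly coincided. The log2 ratios were -0.48 and -0.06, with a mean of -0.27 ± 0.29 (SD, n = 2 arrays). The dimmer probe, AF331708, gave -0.05 and 0.01, with a mean of -0.02 ± 0.04, at 2.06 to 3.83 times its background. The probes thus differed on array 1, and the lower level of Npr2 in the null pool rests on 1 probe. After loess the ratio lay mostly on array 1, and with median centring mostly on array 2 (-0.04 on array 1 and -0.56 on array 2 for BC023420).

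**Figure D2:**
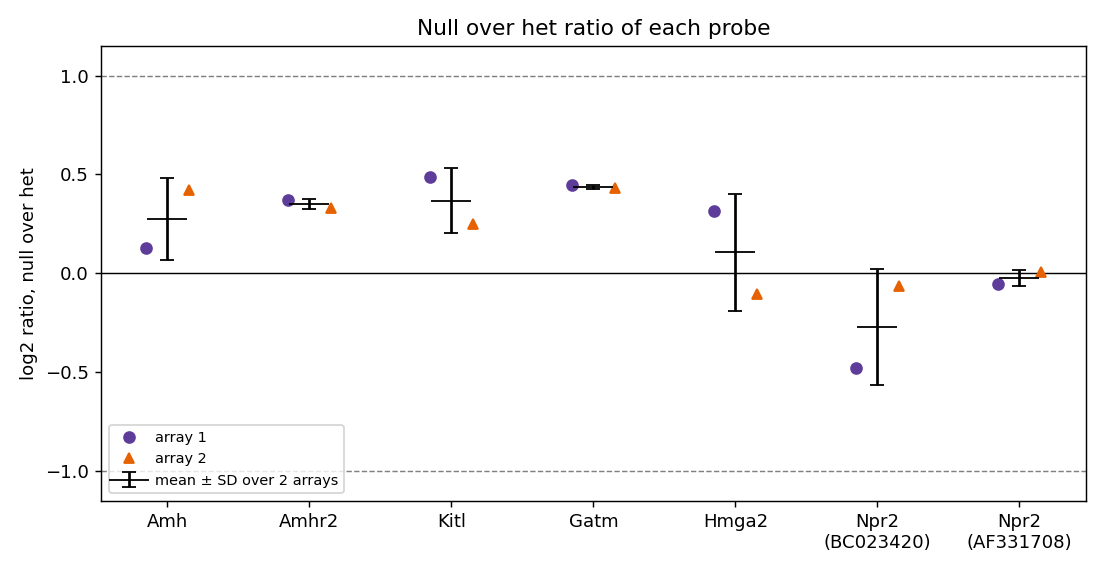
Log2 ratio of the null over the het pool for each probe on array 1 (circles) and array 2 (triangles), with the mean (bar) and SD over the 2 arrays, and dashed lines at 2-fold. Gatm and Amhr2 have nearly the same ratio on both arrays after loess, Amh and Kitl are above 0 on both with a wider gap, and Hmga2 lies on both sides of 0.

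On the normalised log2 levels, both null values were above both het values for the same 4 genes (Amh, Amhr2, Kitl and Gatm), which was so for 8.93% of all genes. Amh had a mean log2 level of 7.52 ± 0.07 in the null pool and 7.24 ± 0.28 in the het pool (SD, n = 2 arrays). For Kitl the levels were 7.80 ± 0.22 and 7.43 ± 0.06, and for Gatm 7.97 ± 0.14 and 7.54 ± 0.13. Amhr2 had 10.97 ± 0.04 in the null pool and 10.62 ± 0.06 in the het pool. Hmga2 had 7.76 and 7.23 in the null pool against 7.45 and 7.34 in the het pool, and Npr2 had 9.35 ± 0.29 against 9.62 ± 0.59, so these pools lay within each other's spread. Levels of different probes are not set against each other, since probes differ in how well they bind.

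Set in the whole array, a ratio as high as that of Gatm or higher was found in 0.870% of the 18514 genes. The same share was 1.35% for Kitl, 1.54% for Amhr2, 2.67% for Amh and 12.2% for Hmga2. A ratio as low as that of Npr2 or lower was found in 1.998%. The difference between the arrays divided by 2, a measure of dye and hybridisation error, was as large as the Gatm ratio in 0.232% of genes. It was as large as the ratio of Kitl in 0.600%, of Amhr2 in 0.697%, of Amh in 1.96%, of Npr2 in 1.998% and of Hmga2 in 20.2%. These shares are over genes of every brightness and describe the arrays only.

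The 3 genes nearest to Gatm in the pair of array ratios, among 9053 named genes, were Glrx (glutaredoxin, 0.43 ± 0.0042), Cited1 (a transcriptional coregulator, 0.42 ± 0.0040) and Spin1 (spindlin, 0.42 ± 0.02). Those nearest to Kitl were Tspan4 (a tetraspanin, 0.38 ± 0.17), C1qa (a complement subunit made by macrophages, 0.37 ± 0.18) and Egr1 (an immediate early transcription factor, 0.36 ± 0.15). Their distances to Gatm or Kitl were 0.0173 to 0.0320 log2 units, over 2 arrays only, and say nothing of shared control.

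The genes that work with each of the 6 were read from lists. Of 13 measured partners of AMH signalling none passed the 2-fold rule, 3 were above 0 on both arrays and 4 below, and the median was -0.03. The members farthest from 0 were the type I receptor gene Bmpr1b (-0.40 ± 0.28, SD, n = 2 arrays), the type II receptor gene Bmpr2 (-0.37 ± 0.24) and the inhibitory SMAD gene Smad6 (0.27 ± 0.24). Both BMP receptor genes had negative ratios on each array, whereas Amhr2 had positive ones. The type I receptor genes Acvr1 and Bmpr1a had 0.03 ± 0.0039 and -0.03 ± 0.05.

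Of 12 measured partners of KIT ligand none passed, 5 were above 0 on both arrays, 3 below, and the median was 0.03. The receptor gene Kit had 0.35 on array 1 and 0.26 on array 2 (0.31 ± 0.06, SD, n = 2 arrays), so ligand and receptor both had positive ratios. Kit is also an oocyte marker. The signal transducer gene Stat5a, which acts downstream of KIT, had 0.23 ± 0.07.

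In the CNP and cyclic GMP pathway 14 of 18 listed genes had a probe and 12 passed the background filter. None passed the size rule, 3 were above 0 on both arrays and 5 below, and the median was 0.0097. Nppc, the gene of the ligand made by mural cells, had -0.35 on array 1 and -0.14 on array 2 (-0.24 ± 0.15, SD, n = 2 arrays). Nppc and the brighter Npr2 probe thus both had negative ratios on both arrays, whereas the dimmer Npr2 probe had -0.05 and 0.01. Gja1, the gap junction gene through which cyclic GMP passes between granulosa cells, had -0.81 and -0.06 (-0.44 ± 0.53). Furin, a protease gene whose product processes the CNP precursor, had 0.25 ± 0.14. Pde3a, the oocyte phosphodiesterase gene, did not exceed the background threshold in any channel.

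Of 10 measured creatine pathway genes none passed, 3 were above 0 on both arrays and 3 below, and the median was -0.03. Gamt, the methyltransferase gene that completes creatine synthesis after Gatm, had 0.25 and 0.12 (0.19 ± 0.09, SD, n = 2 arrays). Arg2, an arginase gene whose product makes ornithine from arginine, had 0.39 ± 0.16, and the creatine kinase gene Ckb had -0.19 ± 0.08. Both genes of the synthesis steps thus had positive ratios, and the uptake transporter gene Slc6a8 had -0.09 ± 0.07. Of 8 measured genes of the HMGA2 and let-7 axis none passed, 4 were above 0 on both arrays and 1 below, with a median of 0.05. The cyclin gene Ccnd2 had 0.22 ± 0.16, Igf2bp3 0.13 ± 0.07 and Hmga1, the close relative of Hmga2, 0.11 ± 0.08. Lists of these sizes hold few genes, and 22.7% of all genes are above 0 on both arrays.

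The positive ratios did not extend to the list of other preantral and cumulus granulosa genes as a whole. Of 11 measured genes of that list, 1 was lower by the 2-fold rule and none higher. On both arrays 1 was above 0 and 5 below, with a median of -0.04 (-0.22 on array 1 and 0.0056 on array 2). The amino acid transporter gene Slc38a3, which supplies the oocyte through cumulus cells, was lower (-1.55 and -0.87, mean -1.21 ± 0.48, SD, n = 2 arrays). The follistatin gene Fst had -0.87 ± 0.47 and the lactate dehydrogenase gene Ldha -0.38 ± 0.30. Igf1, an insulin-like growth factor gene and the 1 member above 0 on both arrays, had 0.15 ± 0.02. It is named after its value was seen. The cumulus expansion genes Ptx3, Tnfaip6 and Has2, also named after their values were seen, had -0.03 ± 0.05, -0.02 ± 0.02 and 0.02 ± 0.07. Of the 11 measured genes Ptx3 had the lowest log2 levels, 6.23 in the null pool and 6.26 in the het pool. The offset pulls ratios of dim probes toward 0, so its ratio near 0 says little. No stimulus after PMSG is described for these animals, and whether the cumulus expansion genes were induced in either pool was not tested.

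Most measured genes of mural and preovulatory granulosa cells had the opposite sign, in a list chosen with earlier results of these arrays known. Of 12 measured genes, 3 were lower by the 2-fold rule (Comp, Cyp19a1 and Inhba) and none higher. On both arrays 9 were below 0 and 1 above, 2 had opposite signs, and the median was -0.37. The gene above 0, Cd34, had 0.43 ± 0.24 and is named after its value was seen. Cyp19a1, the aromatase gene, had log2 levels of 9.13 and 8.89 in the null pool against 10.27 and 10.30 in the het pool, 2.42-fold lower (-1.27 ± 0.20, SD, n = 2 arrays). The median of this list was -0.69 on array 1 and -0.12 on array 2. Nppc is in this list too. Array 1 alone would thus give a much larger gap between these genes and Amh, Amhr2, Kitl and Gatm than array 2.

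**Figure D3:**
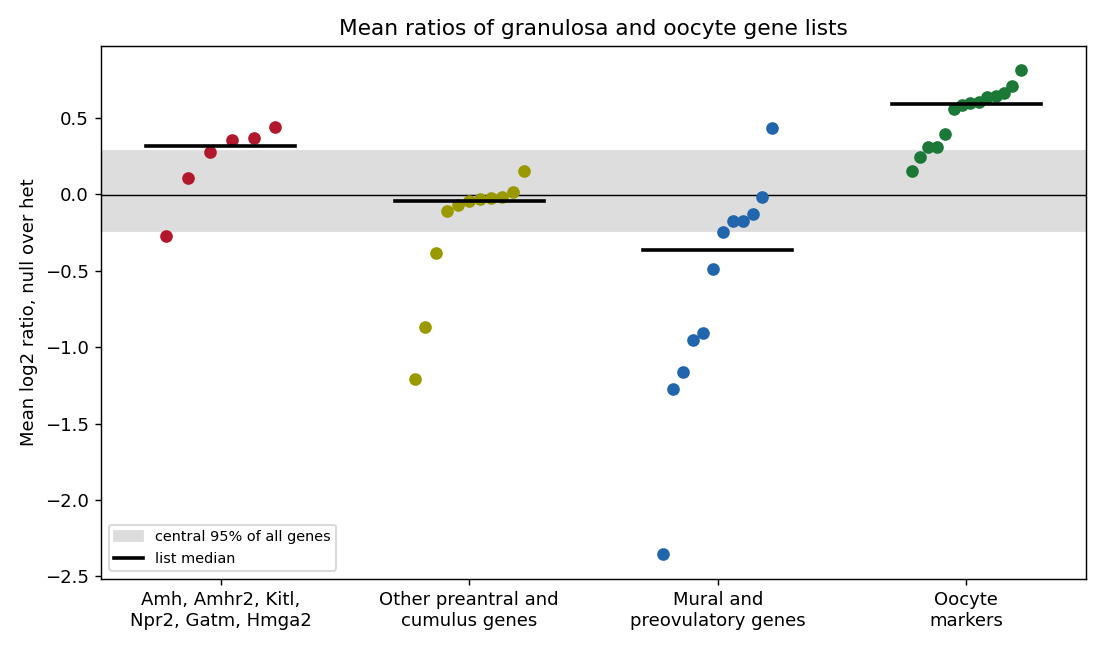
Mean log2 ratio of the null over the het pool for each measured gene of 4 lists (points), with the list median (black bar) and the central 95% of all 18514 genes (grey, -0.24 to 0.28). Amhr2, Kitl and Gatm lie above the grey band, Amh and Hmga2 within it and Npr2 below it. The mural and preovulatory genes extend down to -2.36, and most oocyte markers lie above the band.

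Markers of oocytes were also higher in the null pool. Of 20 oocyte markers 15 had a probe and 14 passed the background filter, and all 14 were above 0 on both arrays, from 0.15 to 0.81, with a median of 0.59. Gdf9, an oocyte growth factor gene, had 0.81 ± 0.30 (SD, n = 2 arrays). The summed normalised signal of these 14 was 25548 and 22902 in the null pool against 15343 and 15109 in the het pool. No marker was listed at 0, and Figla was well above background on 1 array in each pool. The part of oocytes or of the cells attached to them in the ratios above was not tested.

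Markers of other cell types differed less. The median was 0.11 over 7 stroma and smooth muscle genes (Dcn, a proteoglycan gene, 0.39 ± 0.06), 0.05 over 6 surface epithelium genes (Cdh1, E-cadherin, 0.49 ± 0.01) and 0.03 over 8 leukocyte genes (Lyz2, a lysozyme gene, 0.46 ± 0.05). It was -0.05 over 8 theca genes (Hsd3b1, a steroid dehydrogenase gene that granulosa cells also use, -0.66 ± 0.11), -0.03 over 6 endothelial genes (Egfl7, -0.17 ± 0.01) and 0.03 over 5 erythroid genes (Hbb-bt, a beta globin gene, 0.21 ± 0.44). None of these genes passed the 2-fold rule. All 5 erythroid genes had opposite signs on the 2 arrays. The globin gene Hba-a1, named after its value was seen, had -1.19 on array 1 and 1.40 on array 2. The erythroid median near 0 therefore hides a difference between the arrays. The 8 measured granulosa identity genes, Amh among them, had a median of -0.48 (-0.82 on array 1 and -0.14 on array 2). Of these 8, 5 were below 0 on both arrays and 2 above, and 1 (Cyp19a1) was lower by the 2-fold rule. Fshr, Inha and Cyp19a1 are also in the mural and preovulatory list, and Fst is in that of other preantral and cumulus genes. The median of the identity genes is thus not separate from those lists.

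The size of the ratios of the dim probes changed with the processing. Gatm had 0.44 with an offset of 50, 0.55 with an offset of 10 and 0.41 with no background subtraction. Amh had 0.27, 0.37 and 0.26 in the same settings. The scanner software's ratios, in which background and dye correction both differ, gave 0.62 for Gatm and 0.44 for Amh, with an SD of 0.43 for Amh. Amhr2, far above background, stayed between 0.29 and 0.36 in every setting with both arrays. The mean ratios of Amh, Amhr2, Kitl and Gatm were positive, and that of Npr2 negative, in all 10 alternatives. Not all of these are separate checks. The changes of filter left these ratios as they were, as did the mean over probes for genes with 1 probe. The series table values repeat the scanner software's ratios, and single arrays repeat the ratios given for each array. The dimmer Npr2 probe was not used alone in any of them.

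**Figure D4:**
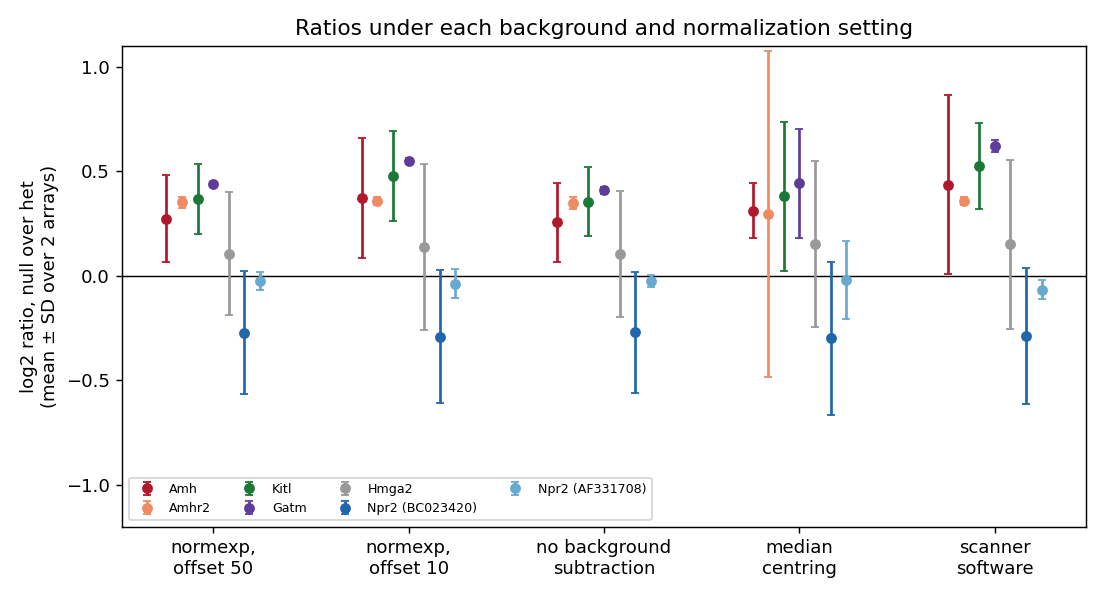
Mean log2 ratio of the null over the het pool for each probe, with the SD over 2 arrays as bars, under 5 settings of background correction and normalisation. The dim probes Gatm, Kitl and Amh have larger ratios with a smaller offset or in the scanner software's values, and the bars of Amhr2 are widest under median centring, where its ratios on the arrays were 0.85 and -0.26.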

How the data were processed

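RNA of 1 null and 1 het pool was compared on 2 dye-reversed arrays; per the labels' protocols, 500 ng of total RNA was amplified and 750 ng of each labelled cRNA hybridised for 17 h. Per the file headers, Agilent Feature Extraction (version A.7.5.1) wrote the deposited intensity values of spots and local background in both channels; its processed signals are background-subtracted with spatial detrending and dye-normalised. The deposited LogRatio is a log10 ratio (red over green). A p-value per spot is also deposited and was not used. The deposited series table holds log2 ratios, red over green, which matched LogRatio within 0.001 for 99.8% of spots on each array.

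In R 4.3.3 with limma 3.58.1, mean intensities were corrected with normexp (offset 50, which pulls dim ratios toward 0) and normalised by loess within arrays, control spots at weight 0. Levels were scaled between arrays with Aquantile. In Python 3.11.15, array 2 was turned to null over het and the arrays averaged as 1 replicate. Of 20868 probes, 146 with outlier flags were left out; 8875 were named by accession, 394 by symbol, 750 by an older symbol, 2 in words, and 10701 kept their accession. Names came from the RefSeq table of GRCm38.p6. The brightest probe stood for a gene, and a gene had to be well above background on both arrays in at least 1 pool. With 1 pool per genotype no test was fitted. The number of arrays limits the precision.

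The genes, lists, rules and alternatives were chosen with earlier results of these data known. Named were the 6 genes, Esr2, in each pathway list the genes past the size rule or else the 3 farthest from 0, in each cell type list the gene farthest from 0, and the 3 genes nearest to Gatm and to Kitl; other genes were chosen after their values were seen. One gene that this rule names is not reported here. The size rule was tested on simulated data.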

Additional observations from a re-analysis of the deposited data

How the results depend on the processing

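Of the 6 genes, 0 passed the 2-fold rule in the 10 alternatives of background correction, normalisation, filter, probe choice and single arrays, and 0 passed the 1.5-fold rule. With the scanner software's ratios and the 1.5-fold rule together, chosen after seeing the data, 1 passed (Gatm). The median of the 6 genes, 0.31, became 0.40 with the scanner software's ratios and with the series table values, 0.37 with an offset of 10 and 0.35 with Npr2 left out, the last chosen after seeing the data; with 1 array alone it ranged from 0.29 to 0.34. Why the scanner software's ratios were larger was not tested. The number of genes above 0 on each array, 4, was 3 under median centring, where Amhr2 had opposite signs, and 4 to 5 with 1 array alone. Hmga2, at 0.11, was -0.10 on array 2 alone and 0.32 on array 1 alone. Npr2, at -0.27, was -0.06 on array 2 alone. Log2 levels from the scanner software's processed signals are on another scale and were not compared. The list medians of AMH partners (-0.07 to 0.01), the CNP and cyclic GMP pathway (-0.03 to 0.03), the creatine pathway (-0.05 to 0.01) and other preantral and cumulus genes (-0.22 to 0.01) changed sign in at least 1 alternative. Over all genes the 2-fold rule passed 7 higher and 17 lower, and 26 and 45 with the scanner software's ratios. Signals of under 7 times background limit Amh, Kitl, Gatm and Hmga2. Each ratio compares both pools on the same array, but no analysis paired over biological replicates was possible because each genotype had a single pool.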

Other observations

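A further probe, AK033703, is described in the files as a pseudogene of Hmga2. It had a log2 null over het ratio of 0.07 on array 1 and -0.02 on array 2 (0.02 ± 0.06, SD, n = 2 arrays). It was well above background on both arrays in the het pool and on 1 array in the null pool. Which of the Hmga2 transcript and its pseudogene copy each probe reads was not tested, since the probe sequences were not used here.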
